A study of Mus musculus with 25 samples.

Results

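The MCM2 to MCM7 helicase genes and 4 regulators of replication licensing were followed cell cluster by cell cluster in postnatal day 10 mouse testis cells that lack or carry Ythdc2. The set was fixed by name and holds 10 genes: Mcm2, Mcm3, Mcm4, Mcm5, Mcm6, Mcm7, Cdc6, Cdt1, Gmnn and Dtl. All 10 were found among the 14103 genes of the deposited single-cell matrix. YTHDC2 is an RNA helicase without which mouse germ cells enter meiosis but do not complete its early stages.

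The groups were 2 Ythdc2 knockout (KO) samples and 1 wild-type (WT) sample of cells with a 4N DNA content, the content of cells that have copied their genome and not yet divided. Each label gives age P10, and testis as the tissue comes from the extraction protocol, although the titles also carry the word embryo. The knockout line was made earlier and is not described further in the labels. Other mutant lines of the series were made in B6D2F1 embryos, an equal hybrid of C57BL/6 and DBA/2, and the background of the KO and WT animals here is not stated separately. The other 22 of 25 samples of the series were not analysed here. The sources used here do not say whether animals were pooled or whether the KO samples came from separate ones. The p-values therefore reflect library-to-library spread that may be technical.

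Replication licensing is the loading of the MCM2 to MCM7 ring onto DNA before S phase. The origin recognition complex and CDC6 together load the ring at an origin, and CDT1 brings the MCM ring to them. Geminin, the product of Gmnn, binds CDT1 and blocks loading in S and G2 phase. DTL is the substrate receptor of the CUL4-DDB1 ubiquitin ligase that has CDT1 destroyed on replicating DNA. A loaded ring becomes the active helicase once CDC45 and the GINS complex join it. Germ cells replicate their DNA once more in preleptotene before they enter meiotic prophase, and no further S phase comes before the meiotic divisions.

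The genes lie apart in the genome, at these positions of the RefSeq annotation of GRCm38.p6. Mcm2 spans chr6:88883474-88898780 and Mcm3 chr1:20802966-20820312. Mcm4 spans chr16:15623897-15637400 and Mcm5 chr8:75109468-75128439. Mcm6 spans chr1:128331575-128359705 and Mcm7 chr5:138164583-138172111. Of the regulators, Cdc6 spans chr11:98907709-98923942, Cdt1 chr8:122568015-122573130, Gmnn chr13:24751845-24761937 and Dtl chr1:191537356-191575544.

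Promoters of the set shared a sequence feature that the choice of genes did not use. E2F factors, which switch on genes at the start of S phase, bind an octamer that was searched here in 4 spellings on both strands: TTTCCCGC, TTTCGCGC, TTTGCCGC and TTTGGCGC. RefSeq windows of 300 bases, from 250 before to 50 after a start site, were on hand for 8 of the 10 genes, with 2 windows for Mcm7. An octamer was found in 7 of the 9 windows, against 2.26% of all 32851 windows searched. Windows with 2 or more matches numbered 4 of 9, for Mcm3, Mcm5, Mcm6 and Mcm7, against 0.0974% of all windows. The single Mcm2 window and the second Mcm7 window held none of the 4 spellings. A match is a description of letters and not evidence of binding.

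The stretches below show every match in the 7 windows, with the octamer in capitals, read 5′ to 3′ on the strand of the gene. They are shown because 7 of the 8 genes with a window share these letters near the start site of a window. The Mcm7 window with matches has its start site at 138171883 and the Cdc6 window at 98908151. Both sites, and the matches in these windows, lie inside the gene spans given above. For Mcm7, upstream and past the start are counted from that site. Where the capitals read GCGGGAAA, the octamer TTTCCCGC lies on the other strand. The 12 capital letters of Mcm5 and the first capital run of Mcm6 each hold 2 overlapping matches, 1 on each strand.
Mcm3, chr1:20820263-20820305, minus strand: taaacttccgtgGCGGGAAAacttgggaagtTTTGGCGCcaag
Mcm5, chr8:75109344-75109379, plus strand: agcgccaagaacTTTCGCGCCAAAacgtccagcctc
Mcm6, chr1:128359733-128359827, minus strand: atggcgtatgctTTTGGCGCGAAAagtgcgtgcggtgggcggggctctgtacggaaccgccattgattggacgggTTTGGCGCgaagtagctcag
Mcm7 upstream site, chr5:138172029-138172060, minus strand: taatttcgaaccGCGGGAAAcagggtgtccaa
Mcm7 site past the start, chr5:138171848-138171879, minus strand: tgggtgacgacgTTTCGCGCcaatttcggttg
Cdc6, chr11:98908001-98908032, plus strand: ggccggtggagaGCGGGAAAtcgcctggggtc
Cdt1, chr8:122568035-122568064, plus strand: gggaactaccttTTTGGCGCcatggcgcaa
Dtl, chr1:191575533-191575564, minus strand: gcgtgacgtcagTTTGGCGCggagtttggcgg

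The KO libraries held 1522 cells and 18089957 UMIs (KO A) and 1855 cells and 25447581 UMIs (KO B), and the WT library held 1151 cells and 16342955 UMIs. The median cell had between 9755.5 and 12826 UMIs, and the libraries shared 0 cell barcodes. Which KO library belongs to which KO sample could not be settled. Ythdc2 itself had 0.57 and 0.519 normalised UMIs per cell in KO cells of cluster 2, against 1.95 in WT cells, a log2 difference of -1.82 ± 0.12 (SE), so residual Ythdc2 RNA was counted in KO cells. A normalised UMI is a UMI count divided by the size factor of its cell, averaged over the cells of a library.

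Cells are grouped by the authors' clusters, numbered here after their names: 1 for undifferentiated spermatogonia, 2 for differentiating spermatogonia, 3 for leptotene-zygotene spermatocytes, and 4 and 5 for a pair that the authors named as mixed. Cluster 2 held 529 KO A, 814 KO B and 654 WT cells. Cluster 3 held 0 KO cells and 427 WT cells. Cluster 4 held 592 KO A, 441 KO B and 24 WT cells, and cluster 5 held 335 KO A, 510 KO B and 1 WT cell. Cluster 1 held 66 KO A, 90 KO B and 45 WT cells, of which 10, 13 and 10 carried 10 or more UMIs from smooth muscle, stromal and globin markers. Summed leptotene-zygotene markers (Sycp3, Dmc1 and 8 others) stood at 2396 and 2631 counts per 1e6 UMIs (CPM) in KO cells of cluster 2 and 3570 CPM in WT cells of cluster 2, and at 8204 CPM in WT cells of cluster 3. In KO cells of cluster 4 they stood at 3937 and 4411 CPM, and in KO cells of cluster 5 at 6217 and 6021 CPM. Differentiating markers (Kit, Stra8 and 5 others) summed to 1067 and 1105 CPM in KO cells of cluster 2, against 751 CPM in WT cells, while WT cells of cluster 3 held 1781 CPM, so these markers did not set cluster 2 above cluster 3.

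The summed RNA of the 10 genes stood at 1643 CPM in KO A, 1547 CPM in KO B and 1446 CPM in WT cells of cluster 1. It stood at 1440 CPM in KO A, 1286 CPM in KO B and 1354 CPM in WT cells of cluster 2, below cluster 1 in each library. In cluster 3 it was 1329 CPM in WT cells. Cluster 4 was higher, at 1836 CPM in KO A, 1737 CPM in KO B and 1686 CPM in the 24 WT cells. Cluster 5 returned to 1376 CPM in KO A and 1329 CPM in KO B. Every gene of the set was detected in every cluster and library with at least 20 cells. Clusters were built from all genes, so differences between them are given as levels with no test.

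**Figure D1:**
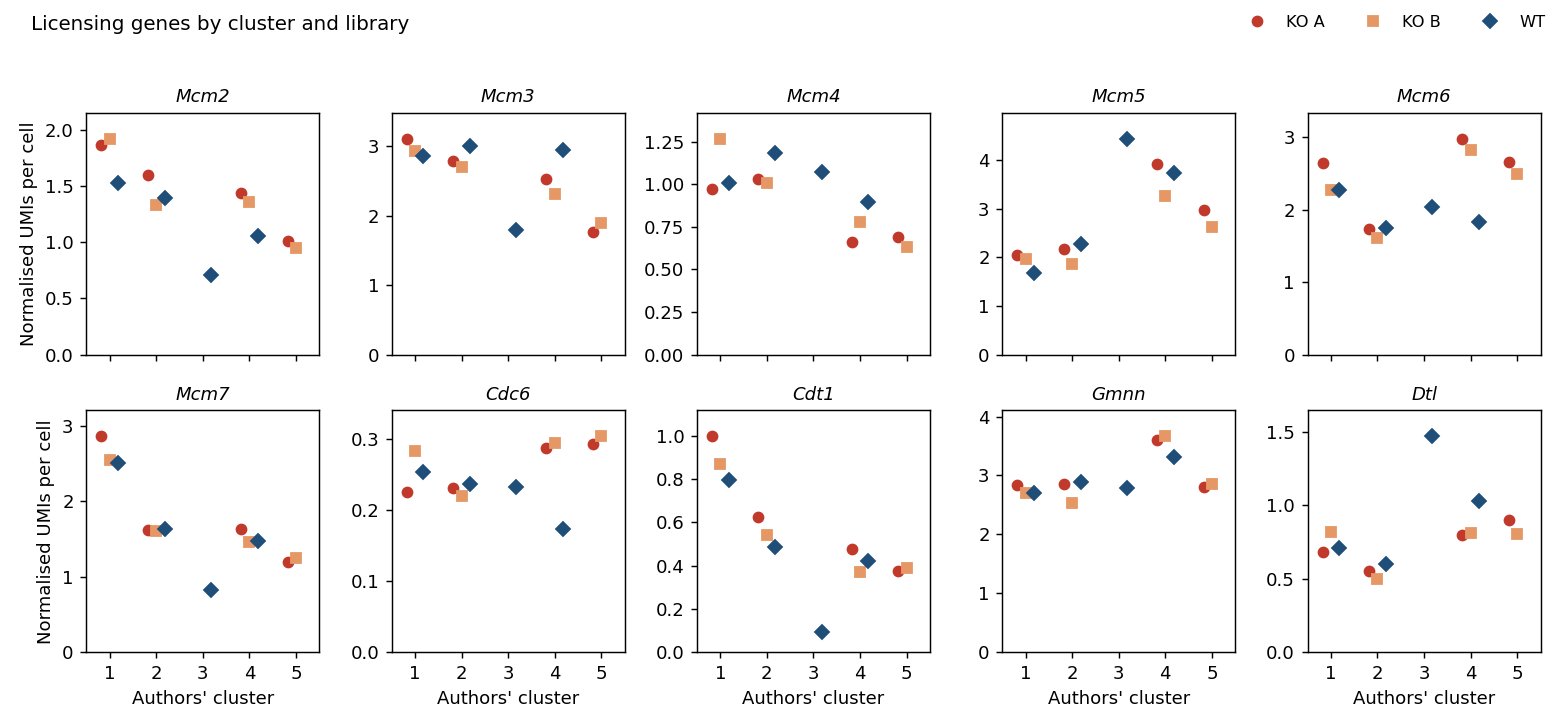
Normalised UMIs per cell (vertical axis, 1 scale per gene starting at 0) of the 10 licensing genes in the authors' clusters 1 to 5 (horizontal axis). Each point is 1 library with at least 20 cells in that cluster, with KO A and KO B left of WT. Cdt1 has its lowest point, 0.0945, and Dtl its highest, 1.47, in WT cells of cluster 3.

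Single genes differed in where they were high. Cdt1, whose product brings the ring to the origin, was highest in cluster 1 in each library, with 0.997 normalised UMIs per cell in KO A, 0.871 in KO B and 0.796 in WT. It had 0.624 normalised UMIs per cell in KO A, 0.542 in KO B and 0.485 in WT cells of cluster 2. In WT cells of cluster 3 it had 0.0945, which is 0.195 times its WT level in cluster 2. KO cells of cluster 4 had 0.475 and 0.372, and KO cells of cluster 5 had 0.374 and 0.388. All 4 of these KO values lay above the WT value of cluster 3 and below every cluster 2 value. The 24 WT cells of cluster 4 had 0.42, between the KO libraries of that cluster, from 10 UMIs in all (42.4 CPM, exact Poisson 95% interval 20.3 to 77.9, counting error only).

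Dtl, whose product has CDT1 destroyed, went the other way. It had 0.553 and 0.502 normalised UMIs per cell in KO cells of cluster 2 and 0.601 in WT cells. WT cells of cluster 3 had 1.47, which is 2.45 times the WT level in cluster 2. In KO cells of cluster 4 it had 0.801 and 0.811, and in KO cells of cluster 5 it had 0.902 and 0.807. Both mixed clusters thus lay above cluster 2 and below WT cluster 3 for this gene.

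The 6 helicase subunits form 1 ring but did not share 1 RNA profile. Mcm7 was highest in cluster 1 in each library, with 2.86 normalised UMIs per cell in KO A, 2.55 in KO B and 2.51 in WT, and stood in cluster 2 at 0.566, 0.628 and 0.652 times those levels. Mcm2, Mcm3 and Mcm7 were lower in WT cells of cluster 3 than in WT cells of cluster 2, at 0.51, 0.6 and 0.5 times the cluster 2 level. Mcm5 was higher there at 1.96 times, with 4.44 against 2.27 normalised UMIs per cell. Mcm4 at 0.909 times and Mcm6 at 1.16 times changed less. In KO cells the step from cluster 2 to cluster 4 looked different: Mcm5 stood at 1.8 and 1.75 times in KO A and KO B, Mcm6 at 1.72 and 1.76 times, Mcm4 at 0.639 and 0.771 times, and Mcm2 and Mcm7 between 0.899 and 1.02 times. KO cluster 5 had lower levels than KO cluster 4 for Mcm2, Mcm3, Mcm5, Mcm6 and Mcm7 in both libraries. Mcm2, for example, had 1.01 and 0.948 in KO cells of cluster 5, against 1.43 and 1.36 in KO cells of cluster 4.

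Gmnn and Cdc6 varied least over clusters and libraries, with an SD of the log2 level of 0.16 and 0.22. Cdc6 had between 0.22 and 0.236 normalised UMIs per cell in the 3 libraries of cluster 2, 0.233 in WT cells of cluster 3, and between 0.288 and 0.304 in the KO libraries of clusters 4 and 5. Gmnn had 2.85 and 2.53 in KO cells and 2.89 in WT cells of cluster 2, 2.78 in WT cells of cluster 3, and 3.6 and 3.66 in KO cells of cluster 4.

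Over the 12 points of cluster and library, Pearson correlations between log2 levels ranged from -0.78 for Mcm5 with Cdt1 to 0.93 for Mcm7 with Cdt1. Mcm2, Mcm7 and Cdt1 correlated with each other at 0.91 to 0.93, and Mcm5 with Dtl at 0.77. With the mean standardised profile of Mcm2 to Mcm7, to which each subunit itself contributes, Mcm2 correlated at 0.89, Mcm7 at 0.88, Mcm3 at 0.82, Mcm4 at 0.43, Mcm6 at 0.17 and Mcm5 at -0.41. Among 6665 other genes of at least 20 CPM, the 5 nearest to that mean profile were Mars (0.95), Psmd2 (0.93), Dgkz (0.93), Asap1 (0.92) and Eif3b (0.92). The points include cluster 1, with its cells that carry somatic markers, and share 3 libraries and their depth, so these values describe 12 points and carry no test.

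In single cells the ring genes were sampled thinly. After each cell was thinned to 5000 UMIs, Mcm2 to Mcm7 together gave a median of 5 UMIs per cell in KO A, 4 in KO B and 5 in WT in cluster 2. The median was 4 in WT cells of cluster 3. In cluster 4 it was 6 in KO A, 6 in KO B and 6 in the 24 WT cells, and in cluster 5 it was 5 in KO A and 4 in KO B. The quartiles of all libraries of clusters 2 to 5 overlapped.

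**Figure D2:**
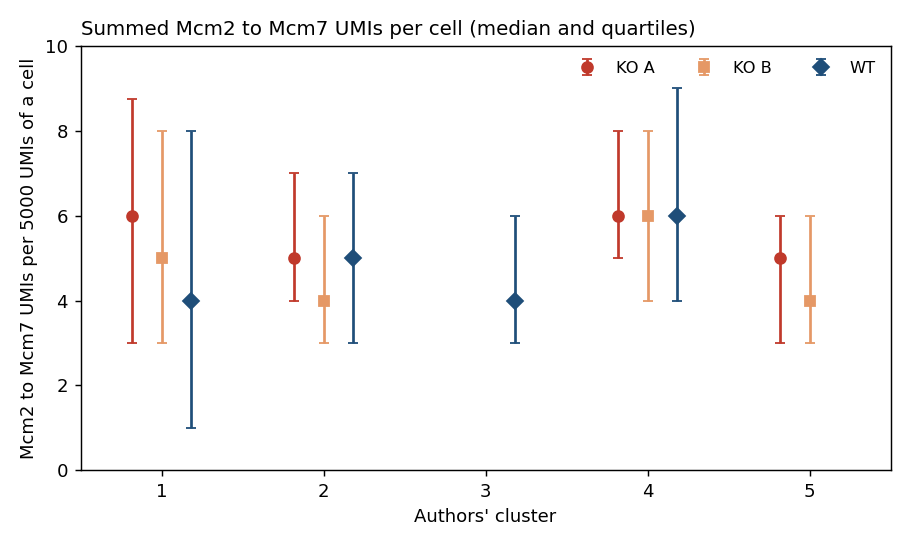
Summed Mcm2 to Mcm7 UMIs per cell after thinning to 5000 UMIs (vertical axis) by the authors' cluster (horizontal axis). Points are medians over the cells of 1 library and bars run from the lower to the upper quartile. Medians lie between 4 and 6 UMIs in every cluster.

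Whether loss of Ythdc2 changed the licensing genes was asked first in cluster 2, the cluster that all libraries filled. No gene of the set passed the test there. Between KO and WT, limma called 0 of 10 at an adjusted p under 0.05, with 0 of 10 at an unadjusted p under 0.05, and edgeR and DESeq2 on recovered counts also called 0. Over all 9435 genes tested, limma called 4.3%, and 2283 genes had an unadjusted p under 0.05. The median log2 difference of the set was -0.09, beside 0.03 for all genes, and 8 of 10 values were below 0. The largest was that of Cdt1, at 0.26 ± 0.14 (SE, adjusted p = 0.288), with 0.624 and 0.542 normalised UMIs per cell in KO and 0.485 in WT. Mcm4 had 1.03 and 1.01 in KO and 1.18 in WT, a difference of -0.21 ± 0.12 (adjusted p = 0.288). Mcm7 had 1.62 and 1.6 in KO and 1.64 in WT, a difference of -0.02 ± 0.11. On the size-factor scale both KO libraries lay above WT for 1 gene, Cdt1, and on the CPM scale for 4. Stage markers differed in this comparison too. Leptotene-zygotene markers were lower in KO for 4 of 8 tested by limma, with 6 by edgeR and 3 by DESeq2. Differentiating markers were higher for 1 of 7 by limma, Kit (0.57), with 3 by edgeR and 0 by DESeq2. Their part in the licensing values was not tested.

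Genes around the set in the pathway were counted in the same cluster 2 fit, where limma called 4.3% of all 9435 genes tested. An unadjusted p under 0.05 was found for 2283 of those genes. By limma the origin recognition complex had 0 of 6 genes called, with 1 at an unadjusted p under 0.05 and a median log2 difference of -0.27, while edgeR called 2 lower and DESeq2 called 0. Origin firing factors, which turn loaded rings into helicases, had 0 of 14 called by limma, edgeR and DESeq2, with 2 at an unadjusted p under 0.05 in limma. Among polymerases and fork proteins 2 of 22 were lower in KO by limma, namely Prim2, a primase subunit, at -0.50 and Rfc5, a clamp loader subunit, at -0.49. For this list edgeR called 4 lower and 1 higher and DESeq2 called 0. Of 16 other S phase genes tested, Asf1b, a histone chaperone, and Rrm2, a ribonucleotide reductase subunit, were lower by limma, at -0.68 and -0.53, while edgeR called 5 lower and DESeq2 1. Globin genes summed to 444 CPM in KO A, 1.07 CPM in KO B and 0.619 CPM in WT cells of cluster 2. In cluster 2, 1 KO A cell carried 10 or more UMIs of globin, smooth muscle and stromal markers, and without it limma again called 0 of the 10 licensing genes. Over clusters 2 to 5, the summed smooth muscle markers stayed at or below 16.9 CPM in every library, stromal markers at 7.16 CPM, Sertoli markers at 2.99 CPM, the 1 Leydig marker in the matrix at 3.4 CPM and the 1 macrophage marker at 1.09 CPM. The 2 endothelial markers in the matrix lay between 37.4 and 63.5 CPM.

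Past cluster 2 the genotypes hardly shared clusters, with 24 WT cells in cluster 4, 1 in cluster 5 and 0 KO cells in cluster 3, so clusters 3, 4 and 5 were compared together: 927 KO A and 951 KO B cells against 452 WT cells, 427 of them of cluster 3. A difference here joins genotype with cluster, and they cannot be told apart. By limma 6 of the 10 genes were higher in KO (Cdt1, Mcm2, Mcm7, Mcm6, Cdc6 and Mcm3) and 3 were lower (Dtl, Mcm4 and Mcm5). Over all 9299 genes, 37.4% were called higher and 29.1% lower, so most genes were called in this comparison and the share called is not particular to licensing. The median log2 difference was 0.28 for the set and 0.08 for all genes.

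Cdt1 showed the largest difference. It had 0.439 and 0.381 normalised UMIs per cell in KO and 0.115 in WT, 3.57 times the WT level, with a log2 difference of 1.75 ± 0.16 (SE, limma adjusted p = 2.24e-27). The WT value comes from 63 UMIs (11.1 CPM, exact Poisson 95% interval 8.51 to 14.2), while the KO values stand at 41.5 and 37.8 CPM. That interval holds counting error in 1 library and no spread between libraries.

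Of the ring subunits that were higher, Mcm2 had 1.28 and 1.14 normalised UMIs per cell in KO and 0.73 in WT (log2 difference 0.72 ± 0.10, limma adjusted p = 3.2e-11). Mcm7 had 1.47 and 1.34 in KO and 0.852 in WT (0.72 ± 0.10). Mcm6 had 2.86 and 2.65 in KO and 2.02 in WT (0.45 ± 0.10). These 3 were called by edgeR and DESeq2 as well. Mcm3 had 2.25 and 2.09 in KO and 1.86 in WT, and its call (0.22 ± 0.10, limma adjusted p = 0.0428) ended under edgeR (adjusted p = 0.479) and DESeq2 (0.797). The same held for Cdc6, with 0.29 and 0.3 in KO and 0.23 in WT (limma adjusted p = 0.0408, edgeR 0.551, DESeq2 0.822).

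Dtl, Mcm4 and Mcm5 were lower. Dtl had 0.837 and 0.809 normalised UMIs per cell in KO and 1.45 in WT (log2 difference -0.81 ± 0.10, limma adjusted p = 1.12e-13). Mcm4 had 0.672 and 0.699 in KO and 1.06 in WT (-0.63 ± 0.11). Mcm5 had 3.58 and 2.92 in KO and 4.4 in WT (-0.44 ± 0.11). The KO libraries did not overlap WT for any of the 3, and edgeR and DESeq2 called all 3. Gmnn, the CDT1 inhibitor, had 3.31 and 3.23 in KO and 2.81 in WT and was not called (0.22 ± 0.10, limma adjusted p = 0.0544).

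Within cluster 4, where the WT value rests on 24 cells, 2 of them marked as doublets, and no test was run, the genes stood otherwise in part. Mcm3 had 2.53 and 2.31 normalised UMIs per cell in KO and 2.94 in WT, 0.821 times the WT level, the opposite direction to clusters 3 to 5 together. Mcm7 stood at 1.05 times, Mcm5 at 0.964 times and Cdt1 at 1.01 times the WT level, and for these 3 the WT value lay between the KO libraries. Mcm6 had 2.98 and 2.82 in KO and 1.83 in WT, 1.58 times, and Mcm2 stood at 1.32 times. Mcm4 at 0.803 times and Dtl at 0.784 times were below WT in both KO libraries, as in clusters 3 to 5 together. Their WT values come from 21 and 25 UMIs, and that of Mcm3 from 70. Gmnn stood at 1.1 times the WT level, and Cdc6 at 1.68 times a WT value that comes from 4 UMIs.

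Against WT cluster 3 alone, KO cluster 4 and KO cluster 5 gave the same direction for all 10 genes. Mcm3 lost its call with KO cluster 5 only (0.02, adjusted p = 0.823), Cdc6 lost its call with either, and Gmnn gained one with KO cluster 4 only (0.38, adjusted p = 0.00046). The prior degrees of freedom were infinite in the main fit of clusters 3 to 5, so its adjusted p-values rest on the spread shared by all genes. They were 1585 with KO cluster 4 only and 34 with KO cluster 5 only. The single WT library gives no spread of its own and was taken to vary as the KO libraries do.

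**Figure D3:**
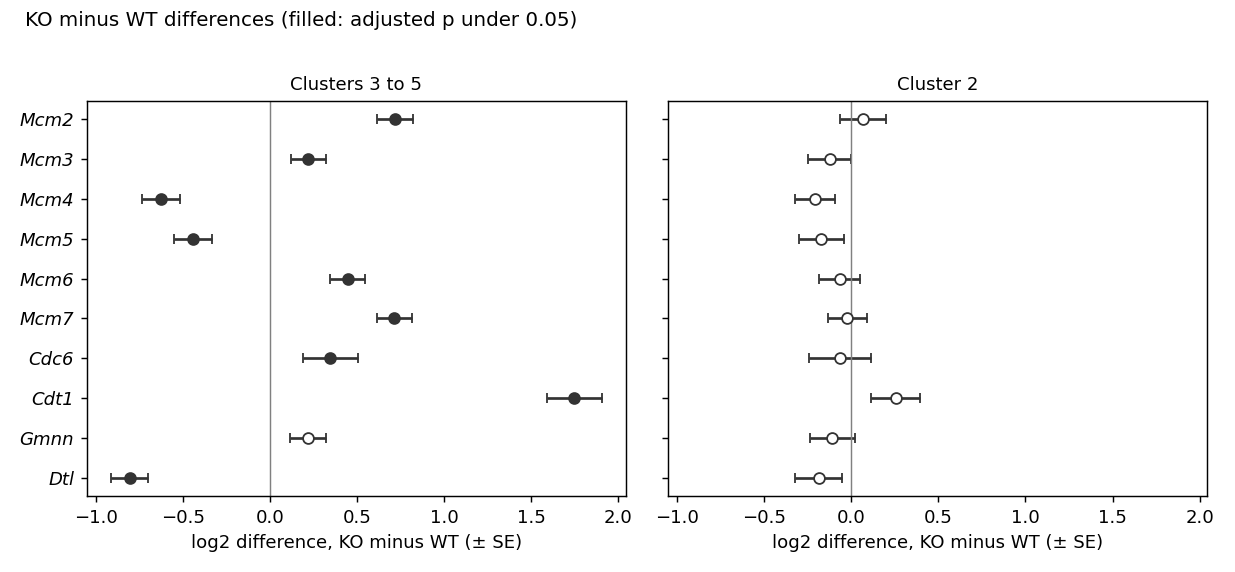
Log2 difference, KO minus WT (horizontal axis, ± SE), for the 10 licensing genes (vertical axis) in clusters 3 to 5 (left) and cluster 2 (right), from 2 KO libraries and 1 WT library. Filled points passed an adjusted p under 0.05 in limma. Cdt1 stands at 1.75 in clusters 3 to 5 and 0.26 in cluster 2.

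Neighbouring steps of replication moved unevenly in clusters 3 to 5. The origin recognition complex, which loads the ring with CDC6, had 5 of 6 genes lower in KO and 0 higher. Orc6 stood at -0.62, Orc4 at -0.60, Orc1 at -0.63 and Orc2 at -0.44. Over all genes, 37.4% were called higher and 29.1% lower. Of 14 origin firing genes, 5 were lower, a share near that of all genes, and 2 were higher. The lower ones included Gins1 (-0.78) and Cdc45 (-0.46), partners of the ring in the active helicase, and Ticrr (-0.51), and Donson was among the higher by limma (0.39). DESeq2 called 4 origin firing genes lower and 0 higher, and edgeR 5 lower and 1 higher. Of 22 polymerase and fork genes, 9 were higher and 5 lower, shares near those of all genes (37.4% and 29.1%), led by Rfc5 (1.26) and Rfc2 (0.82), clamp loader subunits, Pold2 (1.28), a subunit of polymerase delta, and Pole2 (1.46), a subunit of polymerase epsilon. Of the 4 other MCM family genes, Mcmdc2, which meiotic recombination needs, was lower (-1.97), and Mcmbp, which binds MCM proteins, was higher by limma (0.30), a call that ended under edgeR and DESeq2. The ubiquitin ligase genes that act on licensing factors also stood near the shares of all genes, with 3 of 8 higher and 3 lower, among them Fbxo31 (0.83), Cand1 (0.66), Cul1 (-0.72) and Skp1a (-0.70).

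Other cell states moved with this comparison. Mitotic M-phase genes were higher in KO for 15 of 20, and leptotene-zygotene markers were lower for 10 of 10. Differentiating markers were higher for 6 of 7. Of all genes, limma called 37.4% higher and 29.1% lower. Median mitochondrial share was 10.4% and 9.02% in KO cells of cluster 4, 4.73% and 4.28% in KO cells of cluster 5, and 5.5% in WT cells of cluster 3. Their part in the licensing differences was not tested.

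The KO-WT difference itself differed between clusters 3 to 5 and cluster 2 for 9 of the 10 genes by limma, with library as a block, against 51.2% of all 9469 genes. It was more positive in clusters 3 to 5 for Cdt1 (by 1.49 ± 0.17, SE), Mcm7, Mcm2, Mcm6, Mcm3 and Gmnn, and more negative for Dtl (by -0.62 ± 0.14), Mcm4 and Mcm5. Cdc6 was not called (0.41 ± 0.21, adjusted p = 0.0816). DESeq2 called 1 of the 10, Cdt1, and edgeR called 7. The prior degrees of freedom were infinite in this limma fit too, so its adjusted p-values rest on the spread shared by all genes. The single WT library again gives no spread of its own.

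Cells of 1 cluster were then set apart by how much mitotic RNA they held, to see how licensing RNA ran against it. A list of 20 M-phase genes (Plk1, Ccnb1, Cdc20 and others) that shares no gene with the licensing set gave each cell a share of UMIs. The highest and lowest tercile of the cells of each library were compared, with library as a block. Terciles are ranges of a score and not cell types. In cluster 2 the M-phase list took 1.18% of UMIs in KO A, 1.25% in KO B and 1.24% in WT in the high tercile, against 0.516%, 0.58% and 0.617% in the low tercile.

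In cluster 2, 7 of the 10 licensing genes were lower in the M-phase high tercile by limma (Dtl, Cdc6, Gmnn, Mcm6, Mcm7, Mcm2 and Mcm5), beside 7.67% of 9422 genes called lower. Of the 30 combinations of gene and library, 29 were lower in the high tercile. Dtl had 0.302 normalised UMIs per cell in KO A, 0.319 in KO B and 0.519 in WT in the high tercile, against 0.821, 0.737 and 0.777 in the low tercile (log2 difference -1.06 ± 0.12, SE, limma adjusted p = 6.19e-10). Cdc6 had 0.136, 0.134 and 0.217 in the high tercile, against 0.312, 0.365 and 0.301 in the low tercile, in the same order of libraries (-0.995 ± 0.177, adjusted p = 3.13e-05). No library overlapped between the terciles for either gene. The differences of Gmnn and the 4 ring genes lay between -0.39 and -0.33. Mcm3 (-0.13), Mcm4 (-0.22) and Cdt1 (-0.24) were not called, and Cdt1 in KO B had the same level in both terciles, 0.549 in the high and 0.548 in the low.

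Clusters 3 to 5 gave 9 lower genes of 10 by limma, all but Cdt1, beside 4.05% of 9310 genes called lower, and 29 of 30 combinations of gene and library were lower. Cdc6 had 0.109 normalised UMIs per cell in KO A, 0.154 in KO B and 0.117 in WT in the high tercile, against 0.529, 0.486 and 0.338 in the low tercile (log2 difference -1.74 ± 0.18, SE, limma adjusted p = 0.000169). Mcm3 stood at -0.67 ± 0.09, Mcm4 at -0.81 ± 0.15, Mcm5 at -0.52 ± 0.07 and Dtl at -0.86 ± 0.17. For Mcm4 and Dtl the libraries were uneven. Mcm4 differed by -1.06 in KO A, -1.11 in KO B and -0.26 in WT, and Dtl by -1.07, -1.31 and -0.19. Cdt1 was lower in the high tercile of both KO libraries, with 0.285 and 0.276 against 0.602 and 0.53, and higher in that of WT, with 0.163 against 0.108.

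Other measures moved with the terciles. By limma, leptotene-zygotene markers were higher in the M-phase high tercile for 6 of 8 tested and lower for 1 in cluster 2. In clusters 3 to 5 they were higher for 4 of 10. Of all genes, limma called 645 of 9422 higher in cluster 2 and 365 of 9310 in clusters 3 to 5. For these markers edgeR called 6 and 5 higher, and DESeq2 3 and 3. Neither called any of them lower. The median mitochondrial share in cluster 2 was 9.19% in KO A, 6.4% in KO B and 5.42% in WT in the high tercile, against 10.7%, 7.49% and 6.14% in the low tercile. Their part in the licensing differences was not tested.

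The WT high tercile of clusters 3 to 5 held 127 cells of cluster 3 and 22 of the 24 WT cells of cluster 4, along with 4 cells marked as doublets. With WT cells of cluster 3 only, 9 genes were again lower. Thinned to 5000 UMIs per cell, clusters 3 to 5 gave 4 called genes. DESeq2 called 5 there and 3 in cluster 2. Without KO replicate B, 5 genes were called in clusters 3 to 5, and 10 without the WT library.

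**Figure D4:**
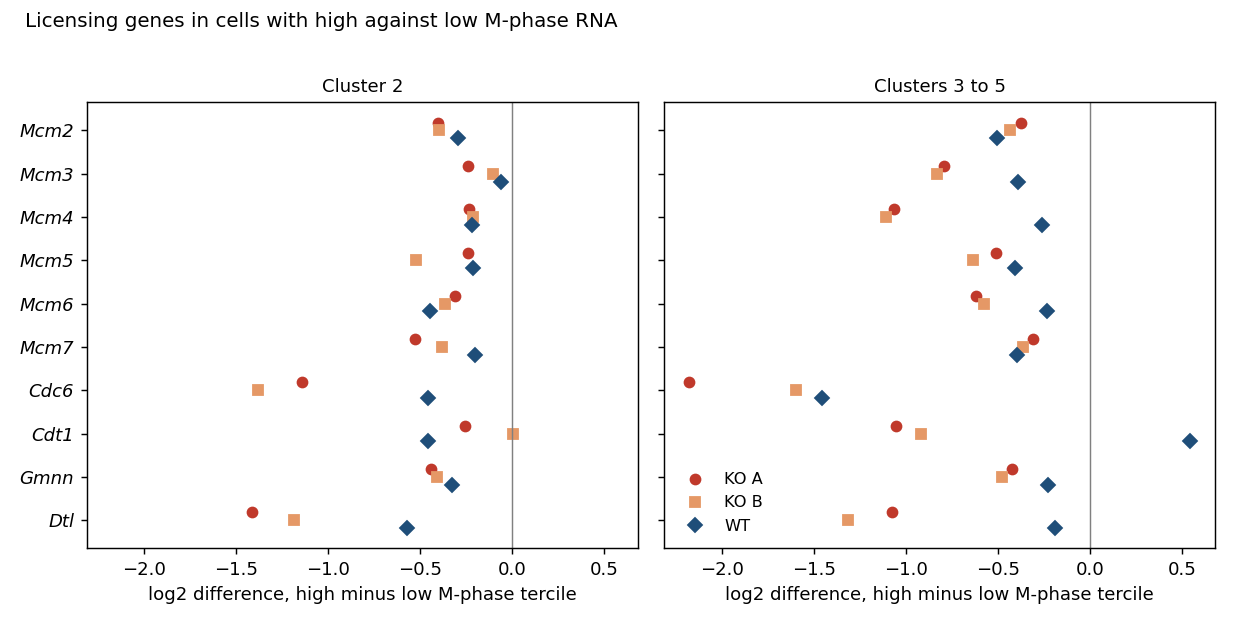
Log2 difference, M-phase high tercile minus low tercile of cells (horizontal axis), per licensing gene (vertical axis) and library, in cluster 2 (left) and clusters 3 to 5 (right). Each point is 1 library. In each panel 29 of 30 points lie below 0, and the exceptions are Cdt1 in KO B in cluster 2 and Cdt1 in WT in clusters 3 to 5.

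The other replication lists were mixed against M-phase RNA. Over all 9422 genes of cluster 2, limma called 645 higher and 723 lower (7.67%) in the high tercile. Of the 9310 genes of clusters 3 to 5 it called 365 higher and 377 lower (4.05%). In cluster 2, 11 of 16 other S phase genes were lower in the high tercile by limma and 0 higher (DESeq2 7 lower), with Ung, a uracil glycosylase, at -1.05, Pcna, the sliding clamp, at -0.85, Ccne2 at -0.78 and Slbp at -0.48. Of 22 polymerase and fork genes, 7 were lower and 0 higher by limma, with 4 lower under TMM scaling and 1 under DESeq2. Of 14 origin firing genes, Gins2 (-1.07) and Gins3 (-0.62) were lower, while Dbf4, the activator of the CDC7 kinase, was higher (0.74). DESeq2 called 1 of these firing genes lower and 1 higher. Of 9 ubiquitin ligase genes, Skp2, the substrate receptor of another ligase for CDT1 (-0.98), and Rbx1 (-0.18) were lower and Cand1 was higher (0.26), while edgeR called 1 higher and 1 lower and DESeq2 called 0. Of 3 other MCM family genes tested, limma, edgeR and DESeq2 called 0, with 0 at an unadjusted p under 0.05 in limma. The origin recognition complex had 1 gene higher, Orc1 (0.35), and 1 lower, Orc6 (-0.33), both by limma and edgeR and neither by DESeq2. In clusters 3 to 5 the counts were 8 of 17 S phase genes and 11 of 22 polymerase and fork genes lower, with 0 higher in both lists, and Dbf4 was again higher (0.92).

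Set within these terciles, the KO-WT differences were uneven, and they are given with no test. Cells were ranked within each library, so a tercile need not hold equal M-phase RNA in KO and WT. For clusters 3 to 5, the M-phase share in the high tercile was 1.104% in KO A, 1.118% in KO B and 0.755% in WT. WT also lay below both KO libraries in the low and middle terciles of those clusters. In cluster 2, Dtl differed between KO and WT by 0.00 on the log2 scale in the low tercile and by -0.73 in the high tercile, and Cdc6 by 0.16 in the low tercile and -0.64 in the high tercile. In clusters 3 to 5, Cdt1 differed by 2.28 in the low tercile, 2.22 in the middle tercile and 0.75 in the high tercile, the tercile that held 22 WT cells of cluster 4. Mcm2 there differed by 0.69, 0.67 and 0.80, and Mcm7 by 0.67, 0.77 and 0.72, from the low to the high tercile.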

How the data were processed

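Single-cell RNA-seq of 2 KO and 1 WT samples was analysed. Per the submitters' processing notes, the tools for these libraries include Cell Ranger 3.0.2 and Scanpy, and the build is mm10 (GRCm38). The deposited matrix holds natural log values, ln(1 + UMI count/size factor). The deposited cell table gives cluster, library, size factor (a score), UMI and gene counts and mitochondrial fraction. Undoing the log gave whole counts for 100% of values above 0 (within 0.001), holding 99.9% of the deposited UMIs. Intervals cover counting error only. Clusters are the authors'. Scrublet in Scanpy 1.11.5, run per library, marked 5 KO A, 11 KO B and 6 WT cells as doublets, which were kept. How the authors made the size factors is not stated.

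Mean count/size factor per cell was tested as log2(value + 0.01), which understates changes of low genes, over genes with a mean of at least 0.05, by limma 3.58.1 (R 4.3.3) with trend and Benjamini-Hochberg adjustment over all genes. Calls have an adjusted p under 0.05. edgeR on raw counts had been set as the test for a matrix of counts; since the matrix holds log values, edgeR 4.0.16 and DESeq2 1.42.0 on recovered counts are alternatives. KO against WT leaves 1 residual degree of freedom and the M-phase fits 2. The smallest exact p of 1 library against 2 is 0.333. The M-phase terciles pair by library because they are cells of the same library. The gene set, lists and naming rule (all 10 genes, up to 4 genes of smallest p per list, the 5 of nearest profile) were chosen with earlier results of these data known. The tests were tested on simulated data.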

Additional observations from a re-analysis of the deposited data

Results flagged for a closer look

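For 9 genes the KO-WT difference (log2) was not the same in clusters 3 to 5 as in cluster 2, by limma's test of the difference itself with library as a block. The difference of differences was 0.65 for Mcm2, 0.35 for Mcm3, -0.42 for Mcm4, -0.27 for Mcm5, 0.51 for Mcm6, 0.74 for Mcm7, 1.49 for Cdt1, 0.33 for Gmnn and -0.62 for Dtl. Of all 9469 genes, 51.2% passed the same test. In clusters 3 to 5 the WT cells were nearly all of cluster 3 and the KO cells of clusters 4 and 5, so genotype and cluster cannot be told apart. Cdt1 alone passed with DESeq2, and all but Mcm3 and Gmnn passed with edgeR. The limma calls rest on the spread shared by all genes and on a single WT library.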

How the results depend on the processing

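In cluster 2, 0 licensing genes were called between KO and WT under all 10 alternatives with a test, although the calls over all genes (271 higher, 135 lower) varied. They were 763 and 649 with edgeR, 28 and 25 with DESeq2, 682 and 775 with TMM scaling, 2 and 1 with no filter, and 92 and 21 without doublets. In clusters 3 to 5, 7 to 10 licensing genes were called, and the Mcm3 and Cdc6 calls ended under edgeR, DESeq2, TMM scaling, no filter, equal cell numbers and KO cluster 5 only; all genes gave 1720 higher and 1882 lower calls with DESeq2, against 3480 and 2703. For the difference between classes, DESeq2 called 1 licensing gene (628 higher and 727 lower of all genes, against 2811 and 2041).

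For M-phase in cluster 2, 7 licensing genes fell to 3 with DESeq2 and 2 with no replicate block, and 6 to 7 were called with 1 library left out. All genes gave 645 higher and 723 lower, against 1170 and 493 with TMM scaling, 901 and 650 with edgeR, 196 and 78 with DESeq2, 324 and 289 without KO replicate B, 108 and 50 with no block, and 275 and 198 after thinning. In clusters 3 to 5, 9 fell to 5 with DESeq2, 0 with no replicate block (0 higher and 1 lower of all genes, with 481 at an unadjusted p under 0.05), and 4 after thinning to 5000 UMIs; leaving out 1 library gave 5 to 10. All genes gave 365 and 377, against 585 and 345 with TMM scaling, 714 and 616 with edgeR, 246 and 148 with DESeq2, 165 and 115 after thinning, 260 and 212 without KO replicate A, 193 and 138 without KO replicate B, and 1129 and 1262 without the WT library. Comparing WT cells of cluster 3 only, and leaving out cells that carry 10 or more UMIs from smooth muscle, stromal and globin markers, were chosen after seeing the data and moved no count of licensing genes by over 1.5 times. On the CPM scale, both KO libraries exceeded WT in cluster 2 for 4 genes, against 1. No paired analysis was possible because no number ties KO to WT libraries, and leaving out a KO library leaves KO against WT no residual degree of freedom, so it gives values with no test. No licensing gene changed direction where it was called. The cause of these changes was not tested.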
